A study of Triticum aestivum with 20 samples.

Results

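Anthers of 3.0 mm were compared between cold and control plants of BS366, a thermosensitive genic male sterile (TGMS) wheat line. Members were the 4 arrays whose titles give the 3.0 stage, out of 20 arrays in the series. Arrays A and B held cold anthers (10 °C, with 12 h and 14 h of light), and arrays E and F held control anthers (20 °C, with 12 h and 14 h of light), so that A was paired with E and B with F. All plants were vernalized in the field, were held in their condition for 5 days, and per the labels were later moved to 20 °C with 12 h of light. No source used here gives the time of anther collection relative to this move, or the number of plants behind an array. The temperature of the cold condition is that of the labels, and a slightly different one is also found in the study's text. Total RNA of each sample was hybridized as biotin-labelled cRNA to 1 Affymetrix Wheat Genome array. The other 16 arrays cover anthers of 1.5, 2.0, 2.2 and 2.5 mm in the same 4 conditions.

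In an anther, the tapetum is the innermost wall layer, which feeds the developing pollen and supplies the coat of the pollen grain. Microspores leave meiosis as single cells, divide, and then fill with storage reserves as pollen matures. Genes of dividing cells, such as those of the core histones, are used early, while another set of genes is used only in maturing pollen and late anther walls. In TGMS lines, this programme fails within a range of temperatures and pollen is lost.

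The stage is a length, so an effect of cold on expression and a development that lags behind anther length cannot be told apart in any result below. In whole anthers, fewer cells of a type and less RNA per cell cannot be told apart either. The 2 arrays of a temperature differ in photoperiod, and nothing in the labels says that they came from separate plantings, so p-values measure only a spread between arrays that is pooled over all 20. The array medians lay between 6.14 and 6.46 on the log2 scale, and the number of arrays limits the precision. The control arrays of 3.0 mm stood apart, with a Pearson correlation of 0.971 with each other and of 0.547 to 0.713 with the remaining arrays. No array replaces them, so no result at 3.0 mm could be given without both. The anther label was checked with the raftin genes of the tapetum, whose 4 probe sets had log2 levels between 7.7 and 14.1 over all arrays.

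Cold anthers of 3.0 mm differed from control anthers in 27.2% of the probe sets tested, in both directions. A probe set is the group of probes on the array that reads 1 transcript. The dim limit below is the 60th percentile of an array, and a probe set was tested if some temperature and length had its 2 arrays above this limit. This kept 13805 of 28894. Of these, 1921 (13.9%) were called higher and 1830 (13.3%) lower in the cold, by limma, at an adjusted p under 0.05 and a 2-fold change or more. Both cold arrays lay above both control arrays in 4668 probe sets (33.8%) and under both in 4413 (32%). The median change over all probe sets tested was 0 on the log2 scale.

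Both pairs of arrays gave these changes. A change of at least 2-fold in the same direction in A minus E and in B minus F was found in 1592 higher (11.5%) and 1425 lower probe sets (10.3%). These 3017 were 75.1% of the probe sets that differed 2-fold in the 12 h pair and 61.9% of those in the 14 h pair, and 21 differed 2-fold in opposite directions. The 14 h pair had more probe sets lower in the cold, at 2710 against 1751 in the 12 h pair, while 2161 and 2267 were higher. Among cold anthers, B lay 2-fold under A in 1145 probe sets and above it in 427. Among control anthers, F lay 2-fold under E in 204 and above it in 306.

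**Figure D1:**
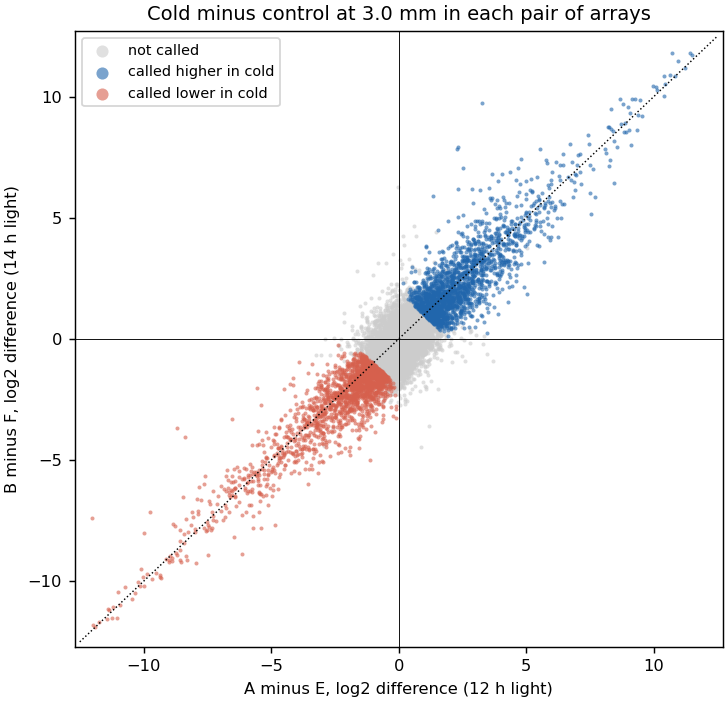
Difference between cold and control anthers of 3.0 mm in the 12 h pair (A minus E, x axis) and in the 14 h pair (B minus F, y axis), in log2 units, for the 13805 probe sets tested. Points are probe sets, colours give the call and the dotted line marks equal differences. The called probe sets follow the line, and 21 of all probe sets tested differ 2-fold in opposite directions.

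The called probe sets were then described by their course from early anthers to 3.0 mm, where early is the mean of the 1.5 and 2.0 mm arrays of the same temperature. The sorting used measured values, so the class sizes are a description and have no test. Of the 1921 probe sets called higher, 1537 (80%) were kept high, meaning that the control level at 3.0 mm was at least 1 log2 unit under its early level while the cold level was not. A further 123 were lost by at least 1 unit under both temperatures, in 43 the cold level of 3.0 mm was at least 1 unit above its early level while the control level of 3.0 mm was not 1 unit away from its own, and 218 passed none of these limits. Of the 1830 called lower, 679 (37.1%) were never switched on, meaning that the control level was at least 1 unit above its early level while all 10 cold arrays stayed at or under the dim limit. Another 725 (39.6%) were raised in control anthers and held at their early level in the cold, although above the dim limit in at least 1 cold array. The remainder were 67 raised less in the cold, 45 lost in the cold and 314 others. The rule for never switched on sets no limit on a rise in the cold that stays under the dim limit. Of the 1830, 134 had a cold level at least 1 unit above its early level, which is more than the 67 raised less. The 43 had risen in control anthers too, where their medians with 12 h and 14 h of light were 6.44 and 6.53 at 1.5 mm, 9.89 and 9.67 at 2.2 mm, 10.27 and 9.11 at 2.5 mm and 6.43 and 6.58 at 3.0 mm, and 32 of them were called lower in the cold at 2.2 mm. A low value on these arrays does not show that a transcript was absent, since no detection calls were used here.

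Of the probe sets called higher in the cold, 1660 (86.4%) had a control level at least 1 unit under its early level, and of those called lower, 1471 (80.4%) had a control level at least 1 unit above it. Over all probe sets tested these shares were 16.2% and 13.7%. The cold level of those called higher was at least 1 unit above its early level in 10.6%, and that of those called lower at least 1 unit under it in 5.03%, beside 4.64% and 4.19% of all. Selection for a difference of at least 1 unit at 3.0 mm raises all of these shares, so they describe the called probe sets and have no test. The 45 probe sets lost in the cold were weaker in the 12 h pair, with a median A minus E of −0.81 against a median B minus F of −2.33, and in 33 of them B lay 2-fold under A.

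**Figure D2:**
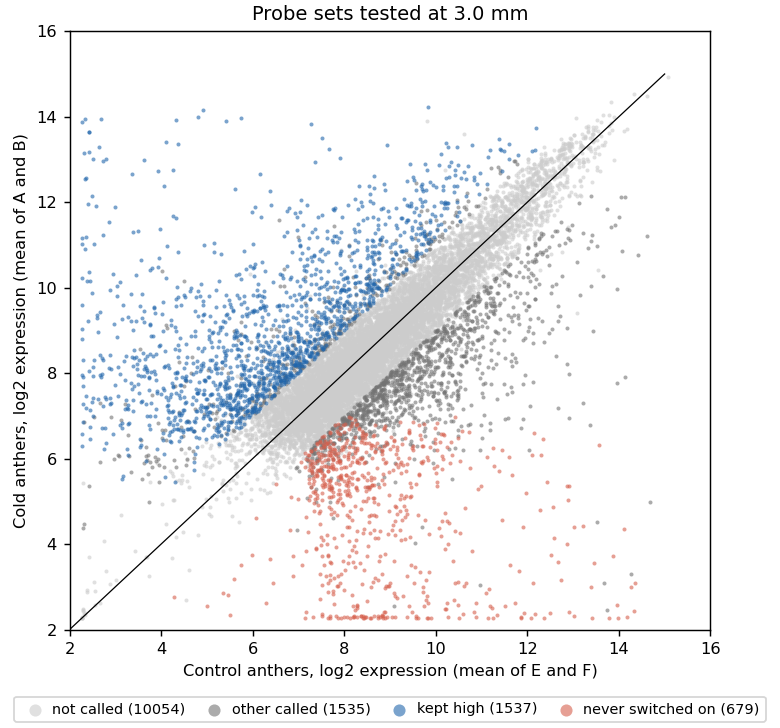
Mean log2 expression of control anthers (E and F, x axis) and cold anthers (A and B, y axis) of 3.0 mm for each probe set tested, with equality as a line. The 1537 probe sets kept high lie above the line and the 679 never switched on lie under it, many of the latter along the lowest values of the cold arrays.

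The median of the probe sets kept high was steady in cold anthers, although single members were not. Their median log2 level in the 12 h cold arrays was 8.6 at 1.5 mm and 8.82 at 3.0 mm, and in the 14 h cold arrays it was 8.66 and 8.88. In control anthers the median was 8.72 and 8.6 at 1.5 mm in the 12 h and 14 h arrays, and 6.33 and 6.35 at 3.0 mm. The groups of medians parted at 3.0 mm, which the class rule nearly fixes, and overlapped at 1.5 mm. The rule also leaves out members whose cold level fell by 1 unit or more. These medians therefore describe the members and do not test them. The median change at 3.0 mm was 2.22, or 4.66-fold, with quartiles of 1.54 and 3.43, and 148 members changed by at least 5 log2 units. In 1322 members both pairs were at least 2-fold higher, beside 11.5% of all probe sets tested, and the call at 3.0 mm raises this count. In 932 (60.6%) both control arrays of 3.0 mm were at or under the dim limit.

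The class rule used the control arrays of 3.0 mm, so the length at which the control level was lost is a description. In 1053 members (68.5%) the control mean was first 2-fold under its early level at 3.0 mm, in 315 (20.5%) at 2.5 mm and in 169 (11%) at 2.2 mm. The cold level of 3.0 mm was nearest to the control level of 2.0 mm in 601 members (39.1%), of 2.2 mm in 442 and of 1.5 mm in 301, beside 27.9%, 27.2% and 18.2% of all probe sets tested for these 3 lengths. The stage of 3.0 mm itself was the nearest in 1 member, which the class rule nearly fixes.

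The members kept high were not all alike at the earlier lengths. At 2.5 mm, 380 of them (24.7%) were called higher in the cold and 142 lower, beside 5.84% and 10.6% of all probe sets tested. At 2.2 mm, 178 were called higher and 161 lower, beside 4.53% and 7.47%. At 1.5 mm, where 0.0362% of all probe sets tested were called higher and 0.246% lower, 0 members were higher and 1 was lower. The 2.2 and 2.5 mm arrays were not used to sort these members, but the members were chosen from the same fit. The counts of higher members rested in part on single arrays. At 2.5 mm, 192 were called without the 14 h control array, and at 2.2 mm, 105, 70 and 80 were called without the 12 h cold, the 14 h cold and the 12 h control array.

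A smaller group of members changed the direction of the difference. In 198 members (12.9% of those kept high), the cold level was called lower at 2.2 or 2.5 mm and higher at 3.0 mm. Opposite calls at 2 lengths are what chose them, so no test of the difference between lengths bears on them. Their median control level was 7.93 in early anthers, 9.85 at 2.2 mm, 9.74 at 2.5 mm and 4.84 at 3.0 mm, a peak and a loss. Their median cold level was 7.52 in early anthers, 7.5 at 2.2 mm, 7.74 at 2.5 mm and 8.6 at 3.0 mm. In 161 members (10.5%) the cold level of 3.0 mm was at least 1 unit above that of early cold anthers, so for these the name kept high understates the course, with medians of 7.09 early and 9.46 at 3.0 mm.

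**Figure D3:**
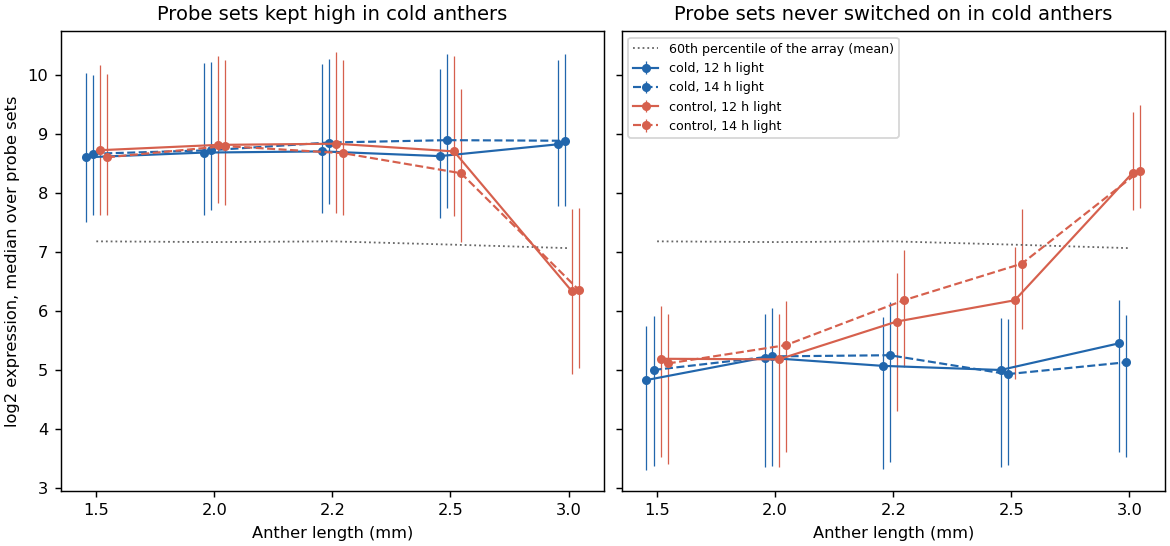
Median log2 expression over the 1537 probe sets kept high (left) and the 679 never switched on (right) against anther length, in each of the 20 arrays. Bars are the quartiles over probe sets and the dotted line is the dim limit, as a mean over the 4 arrays of a length. For probe sets kept high, control medians lie at 6.33 and 6.35 at 3.0 mm, under both cold medians, and for those never switched on the control medians reach 8.34 and 8.37. The class rules nearly fix these differences at 3.0 mm.

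Core histone genes were the largest family among the 18 probe sets kept high that carry a name, out of 1537. Of all probe sets tested, 89 carry a name and 17 of these are histones, so the ranking depends on which genes are named. Histones H2A and H2B package new DNA, and the replication-dependent copies are used while cells divide. All 17 histone probe sets tested were called higher in the cold, beside 13.9% of all probe sets tested, with a median log2 change of 2.45 beside 0. Of the 17, 15 were kept high, beside 11.1% of all probe sets tested. The other 2 were lost in both by a small margin, since their cold level at 3.0 mm minus the early level was −1.01 (H2A-2) and −1.04 (Ta.7378.1.S1_at of wcH2B-8). Over the family, this difference was between −4.52 and −1.9 in control anthers and between −1.04 and −0.31 in cold anthers. Cold anthers of 3.0 mm thus also lay under their early level, by less than control anthers.

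H2A-9 is read by 6 probe sets tested. For that of Ta.27657.14.S1_s_at, the log2 levels were 12.11 and 11.83 in the cold arrays A and B and 9.13 and 8.12 in the control arrays E and F, a change of 3.35 ± 0.31 (SE; limma, adjusted p = 2.47e-06). For Ta.27657.6.S1_x_at, which changed the least, they were 13.13 and 13.28 against 11.85 and 11.11, a change of 1.73 ± 0.22 (SE; limma, adjusted p = 4.81e-05). The cold and control arrays did not overlap for either, and the control array with 14 h of light was the lower one for both.

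The H2A-3 probe set tested (Ta.27192.1.S1_at) had log2 levels of 11.23 and 11.35 in the cold and of 8.92 and 8.41 in control anthers, a change of 2.63 ± 0.21 (SE; limma, adjusted p = 8.92e-07). Its cold arrays lay at 12.19 and 12.09 at 1.5 mm, and its control arrays at 11.75 and 12.05. A further H2A-3 probe set (Ta.27192.1.S1_s_at) did not pass the filter and lay at 4.45 and 3.37 in the cold and at 4.45 and 4.79 in control anthers. H2A-2 had 10.54 and 10.32 in the cold against 6.28 and 7.07, a change of 3.76 ± 0.48 (SE; limma, adjusted p = 4.49e-05). This was the greatest change of the 17 histone probe sets, and its control level was under the dim limit in E.

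H2B pairs with H2A in the nucleosome and was read by 2 genes. The 7 probe sets of wcH2B-8 changed by 1.95 to 3.05, and that of Ta.7378.17.S1_x_at had 9.12 and 9.63 in the cold against 6.85 and 5.81 (adjusted p = 2.16e-05 from limma). In wcH2B-6 the x_at probe set (Ta.27708.1.S1_x_at) had the smallest change of the family, with 9.96 and 10.6 against 9.25 and 8.73, a change of 1.29 ± 0.31 (SE; limma, adjusted p = 0.00471). Its call was lost without cold array B (0.85, adjusted p = 0.0794 from limma) and without control array F (1.08, adjusted p = 0.0537 from limma). At 2.5 mm 12 of the 17 histone probe sets were called higher, beside 5.84% of all probe sets tested. At 2.2 mm 1 of the 17 was, beside 4.53%, which is near the share of all. Copies of a histone gene have near-identical sequences, and 1 transcript can reach several of these probe sets, so they are not separate measurements.

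Hmgb3, the gene of a high mobility group protein of chromatin, was called higher in both of its probe sets tested. The first (Ta.30768.1.S1_x_at) was kept high, with log2 levels of 13.51 and 13.94 in the cold and 12.27 and 12.13 in control anthers, a change of 1.53 ± 0.24 (SE; limma, adjusted p = 0.00022). The second (Ta.30768.3.S1_x_at) changed by 1.32 and missed the control limit of the class, with a control course of −0.85. Both also lay higher in the cold at 2.5 mm, by 1.33 and 1.38 (adjusted p = 0.00163 and 0.000215 from limma).

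**Figure D4:**
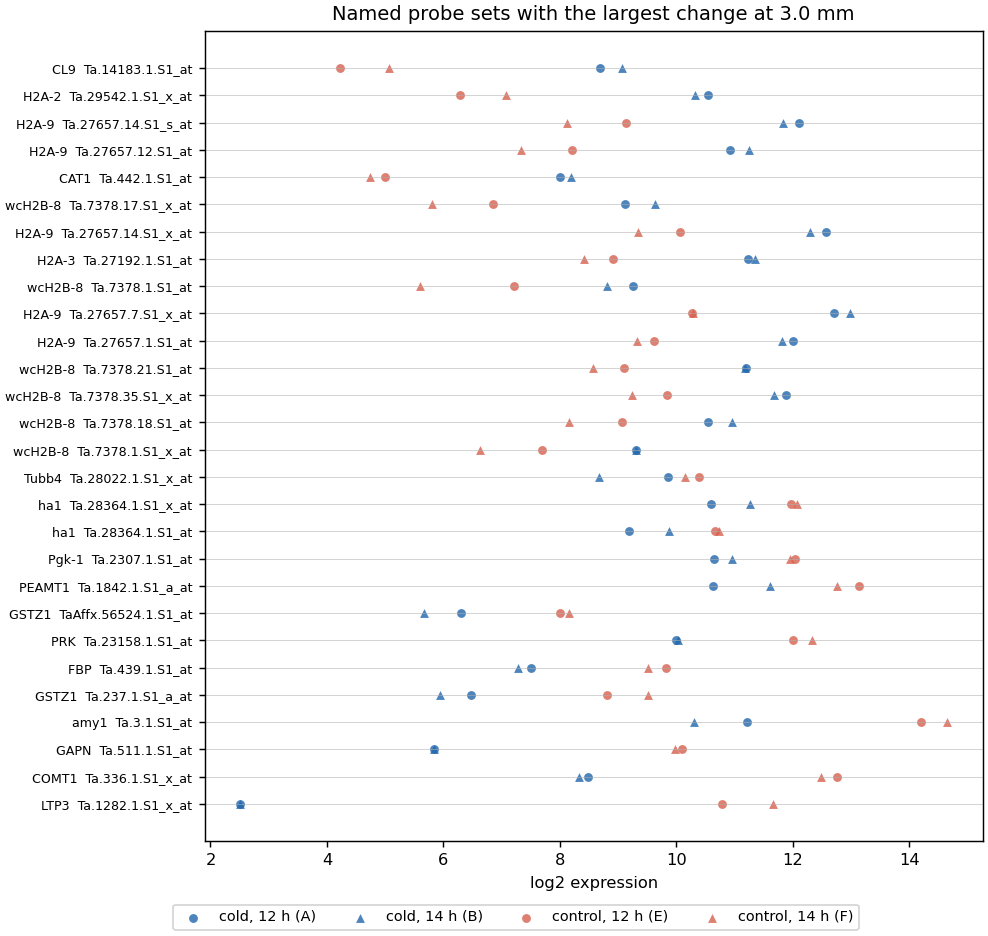
Log2 expression in each array of 3.0 mm (x axis) for the 28 named probe sets of the rule on largest changes, 15 called higher and 13 called lower, ordered by change with the most positive at the top. Circles are 12 h arrays and triangles 14 h arrays, in blue for cold and red for control. Cold and control arrays do not overlap in any of the 28, which their choice as the most changed called probe sets nearly fixes. Of all probe sets tested, 33.8% have both cold arrays above both control arrays and 32% under both.

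CL9, the gene of ribosomal protein L9, had the greatest positive change of the named genes and belongs to the group whose direction turned. Its log2 levels were 8.69 and 9.07 in cold arrays and 4.22 and 5.07 in control arrays of 3.0 mm, a change of 4.24 ± 0.35 (SE; limma, adjusted p = 1.04e-06). At 2.2 mm the cold arrays lay at 7.71 and 8.47 and the control arrays at 9.84 and 9.15, and at 2.5 mm at 7.88 and 8.92 against 9.62 and 9.36. The control level of CL9 was thus the higher one at both of these lengths and the lower one at 3.0 mm. The other 6 translation probe sets tested, those of eIF-2-beta, eIF4B, eIF4E, NCBP and TEF1, were not called, with changes from −0.24 to 0.41. These 6 thus did not share the change of CL9. The RPS29 probe sets did not pass the filter, so no other ribosomal protein gene of the list was tested.

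CAT1, a catalase gene that removes hydrogen peroxide, met the rule for kept high, but its cold course was not flat. Its cold arrays lay at 4.74 and 4.52 at 1.5 mm, at 7.43 and 7.71 at 2.0 mm, and at 8 and 8.19 at 3.0 mm. Its control arrays lay at 8.29 and 6.95 at 1.5 mm and at 5 and 4.74 at 3.0 mm. The change at 3.0 mm was 3.23 ± 0.68 (SE; limma, adjusted p = 0.00209), with no overlap between cold and control arrays.

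Other genes called higher followed other courses. AGA.1, listed with the starch and sugar genes, lay at 7.7 and 8.06 against 5.57 and 5.93, a change of 2.13 ± 0.36 (SE; limma, adjusted p = 0.000474). Its control arrays lay at 8.13 and 7.8 at 2.2 mm and at 8.37 and 8.21 at 2.5 mm. The cold arrays of these lengths had 6.77 and 7.46, and 6.53 and 8.23. Cold and control did not differ by the call at 2.2 or 2.5 mm (adjusted p = 0.114 and 0.079 from limma). TSA, whose function is not stated in the annotation used here, lay at 12.82 and 12.95 in the cold and at 11.74 and 11.79 in control anthers, a change of 1.12 (adjusted p = 0.000204 from limma). Glc1 lay at 7.25 and 8.48 against 6.29 and 6.06, a change of 1.69 (adjusted p = 0.0161 from limma). The call of Glc1 rested on single arrays, since its adjusted p from limma was 0.17 without cold array B and 0.121 without control array F.

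Some members kept high carry only a locus number or no gene at all in the annotation. LOC606323 had 10.7 and 10.86 in the cold against 5.72 and 4.89 (change 5.47, adjusted p = 0.000565 from limma), and its control arrays of 2.5 mm differed widely, at 8.17 with 12 h and 11.57 with 14 h of light. LOC100037599 (Ta.16082.1.A1_at) had 7.28 and 7.66 in the cold against a tied 3.05 in both control arrays (change 4.42, adjusted p = 2.35e-06 from limma), and was also higher in the cold at 2.2 and 2.5 mm, by 1.91 and 1.46. LOC542989 had 6.78 and 10.94 against 4.51 and 3.12, so that its 2 cold arrays differed by more than 4 units, beside a change of 5.04.

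The 2 greatest positive changes were seen in probe sets with no gene name here. Ta.15955.1.S1_a_at lay between 12.51 and 14.08 in all 10 cold arrays, and at 2.28, the lowest value of the arrays, in both control arrays of 3.0 mm. In the control arrays of 2.5 mm it lay at 13.46 with 12 h and at 5.24 with 14 h of light. Ta.11769.2.S1_at lay at 13.78 and 14.11 in the cold and at 2.28 and 2.4 in control anthers of 3.0 mm, while its control arrays of 2.5 mm lay at 14.53 and 14.16, above cold arrays of 7.99 and 12.84. Both changed by 11.6 log2 units (adjusted p = 7.2e-05 and 1.29e-05 from limma).

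By the class rule, probe sets never switched on lay low in cold anthers of every length and higher in control anthers of 3.0 mm. They passed the filter only through control arrays, so the values here describe the members and do not test them. Over the 679 members, the median log2 level in cold arrays was 4.83 and 5 at 1.5 mm and 5.45 and 5.13 at 3.0 mm, for 12 h and 14 h of light. In control arrays it was 5.19 and 5.11 at 1.5 mm, 6.18 and 6.8 at 2.5 mm, and 8.34 and 8.37 at 3.0 mm. The median change at 3.0 mm was −3.31, a 9.94-fold difference, with quartiles of −5.31 and −2.15. In 641 members both pairs were at least 2-fold lower, beside 10.3% of all probe sets tested, and the call at 3.0 mm raises this count. In 185 the change was at least 5 log2 units. These 185 had medians of 2.78 in cold and 9.85 in control anthers of 3.0 mm.

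The filter and the class rule favour a late control level, since members are tested only through control arrays and chosen by a control level raised at 3.0 mm. They do not fix at which of 2.2, 2.5 or 3.0 mm it first passed the dim limit. The counts describe the members and do not test them. In 534 members (78.7%) both control arrays lay above the dim limit for the first time at 3.0 mm, in 63 at 2.5 mm, in 73 at 2.2 mm, and in 9 at 1.5 or 2.0 mm. Both control arrays of 3.0 mm exceeded the 90th percentile of the array in 103 members (15.2%). In 305 members (44.9%) the 10 cold arrays spanned less than 1 log2 unit, and in 111 all 10 lay at or under the 20th percentile of the array. Among the members, 345 (50.8%) held values that were equal in 3 or more arrays, against 11.3% of all probe sets tested, which can understate the spread behind their p-values.

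Part of these probe sets already differed before 3.0 mm. At 2.5 mm 312 members (45.9%) were called lower and 1 higher, and at 2.2 mm 185 (27.2%) were called lower and 1 higher, beside 10.6% and 7.47% lower among all probe sets tested. The class rule used the cold arrays of these lengths, so these counts describe the members and do not test them. At 2.5 mm 199 were called without the 14 h control array, and at 2.2 mm 107 and 123 without the 12 h and the 14 h cold array. The median change was −0.51 at 2.2 mm and −1.18 at 2.5 mm.

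Among control anthers of 2.2 and 2.5 mm, these probe sets were more often higher with 14 h than with 12 h of light. At 2.5 mm array F lay 2-fold above array E in 235 of the 679 members (34.6%) and 2-fold under it in 16, beside 4.68% and 5.06% of all probe sets tested. At 2.2 mm it lay above in 151 (22.2%) and under in 31 (4.57%), beside 4.46% and 3.35% of all probe sets tested. At 3.0 mm it lay above in 26 (3.83%) and under in 17 (2.5%), beside 2.22% and 1.48%. The members kept high showed the opposite at 2.5 mm, where F lay 2-fold under E in 324 (21.1%) and above it in 51. Each of these is a difference between 2 single arrays and has no replicate check.

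The lipid transfer protein gene LTP3 was never switched on. Lipid transfer proteins carry lipids between cells, and several are made by the tapetum for the pollen coat in cereals. LTP3 (Ta.1282.1.S1_x_at) lay at 2.51 in both cold arrays and at 10.79 and 11.65 in the control arrays, a change of −8.71 ± 0.7 (SE; limma, adjusted p = 8.51e-07). All its cold arrays lay between 2.41 and 2.51, near the lowest value of the arrays, so the size of the change depends on how low values are treated. With each value under the 40th percentile of its array raised to that percentile, the change was −5.78. Its control arrays lay at 3.73 and 5.28 at 2.2 mm and at 3.92 and 7.24 at 2.5 mm, with the 14 h array higher at both.

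The 3 probe sets of LOC778422 and LOC100037539 share the first number of their names (Ta.1282) with LTP3 and were also never switched on. LOC778422 lay at 4.08 and 3.93 in the cold and at 12.66 and 13.07 in control anthers (change −8.86, adjusted p = 2.18e-07 from limma). LOC100037539 lay at 5.09 and 5.65 against 12.61 and 13.19 in its at probe set (Ta.1282.2.S1_at), a change of −7.53 (adjusted p = 7.53e-08 from limma), and its change was already −5.39 at 2.5 mm. The x_at probe set of LOC100037539 changed by −7.25. Both probe sets of LOC100037539 rose in the cold too, although under the dim limit, so the class name understates their course. The cold means at 1.5, 2.0 and 3.0 mm were 3.8, 4.11 and 5.37 in the at probe set. In the x_at probe set they were 4.32, 4.92 and 6.31. The probe sets named Ta.1282 may read shared transcripts, which was not tested.

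The study lists 26 auxin probe sets by ID, of which 16 were tested here. Auxin acts through Aux/IAA repressors, which are broken down when the hormone is bound, and through ARF transcription factors, which they release. Of the 16, 11 were called lower and 0 higher, beside 13.3% and 13.9% of all probe sets tested, with a median change of −2 beside 0. The study chose this list on these samples, so the count is not independent evidence of its direction. Of the 11, 8 were never switched on and 3 were held at their early level. These 8 passed the filter only through control arrays, and 2 entries higher in the cold, given below, failed it. The filter thus adds to the count of 11 against 0.

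The other 10 did not pass the filter on dim probe sets, and they did not all lie lower. In a fit over all 28894 probe sets, 5 of them were called lower, 2 higher and 3 not. The lower ones were a second probe set each of IAA12 (TaAffx.128812.1.S1_at, with 2.35 and 2.61 in the cold against 6.26 and 6.85) and IAA14 (TaAffx.78729.1.S1_x_at, with 4.67 and 4.67 against 7.24 and 7.02), 1 of ARF4 and 2 of 5NG4. IAA18 lay at 6.27 and 6.21 against 6.27 and 6.43 (adjusted p = 0.934 from limma), and ARF13 and another ARF4 probe set were not called either. The higher ones belong to none of the families below. Ta.25087.1.S1_at lay at 7.25 and 6.71 in the cold against 5.8 and 5.78 in control anthers (change 1.19, adjusted p = 0.000436 from limma), and Ta.9707.1.S1_at at 6.03 and 5.95 against 4.59 and 4.58 (change 1.41, adjusted p = 3.57e-05 from limma).

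Of 5 probe sets described as 5NG4, an auxin-induced gene first named in pine, the 3 tested were never switched on. Ta.5650.2.S1_x_at lay at 2.28 and 2.45 in the cold and at 10.69 and 10.5 in control anthers, a change of −8.23 ± 0.98 (SE; limma, adjusted p = 2.39e-05). Ta.5650.1.S1_a_at lay at 2.3 and 3.72 against 10.4 and 10.85, and Ta.5650.3.S1_x_at at 2.28 in all 10 cold arrays against 8.53 and 8.32, changes of −7.61 and −6.14. With low values raised to the 40th percentile, as for LTP3, the changes of Ta.5650.2.S1_x_at and Ta.5650.3.S1_x_at were −5.16 and −2.99. In the 3 tested the 14 h control array was above the 12 h control array at 2.2 and at 2.5 mm, as with 7.78 against 3.32 for Ta.5650.2.S1_x_at at 2.5 mm. The 3 have similar names and can share transcripts.

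Of the Aux/IAA repressor genes, IAA12, IAA14 and IAA15 had a probe set tested and called lower at 3.0 mm, and IAA18, given above, was not tested. IAA12 lay at 2.29 and 2.43 against 7.24 and 7.8, a change of −5.16 ± 0.51 (SE; limma, adjusted p = 4.3e-06). IAA14 lay at 3.78 and 3.67 against 7.56 and 7.73, a change of −3.92 ± 0.28 (SE; limma, adjusted p = 3.17e-07). With low values raised to the 40th percentile these changes were −2.08 and −2.21. Neither was called at 2.2 or 2.5 mm. IAA15 differed in course, since it was not dim in the cold, with 8.07 and 8.44 against 12.02 and 11.48, a change of −3.49 ± 0.24 (SE; limma, adjusted p = 2.64e-07). At 2.2 mm IAA15 was higher in the cold, by 1.35 (adjusted p = 0.00308 from limma), as its control arrays dropped to 7.45 and 7.71 there before they reached their highest level at 3.0 mm.

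Among the ARF genes, ARF5 (an activator of auxin responses in Arabidopsis) lay at 4.88 and 5.2 against 7.17 and 7.28 in Ta.6746.1.S1_at, a change of −2.19 ± 0.41 (SE; limma, adjusted p = 0.000932). In its second probe set (Ta.28513.1.S1_s_at) it lay at 5.54 and 6.08 against 7.44 and 7.07, a change of −1.45 (adjusted p = 0.0204 from limma), and without control array E this was −0.98 (adjusted p = 0.19 from limma). That call was also lost without cold array A (adjusted p = 0.0774 from limma) or B (0.0778). ARF16 lay at 7.51 and 7.36 against 9.15 and 9.36, a change of −1.82 (adjusted p = 0.00606 from limma), which was −1.62 without cold array B (adjusted p = 0.055 from limma). ARF17 and ARF2 were not called, with changes of −0.01 and 0.47.

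The 3 probe sets of auxin-repressed proteins were not called at 3.0 mm, with changes from −0.81 to −0.61. Of 4 entries of the table that belong to none of these families, the 2 tested were called lower, and the 2 not tested lay higher, as given above. The first tested (Ta.4027.1.A1_at) lay at 5.37 and 5.31 against 9.33 and 9.6 (change −4.12, adjusted p = 1.55e-06 from limma), and the second (Ta.5105.1.S1_at) at 7.8 and 7.88 against 9.19 and 9.22 (change −1.36, adjusted p = 0.000761 from limma). Cold and control arrays did not overlap in either.

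**Figure D5:**
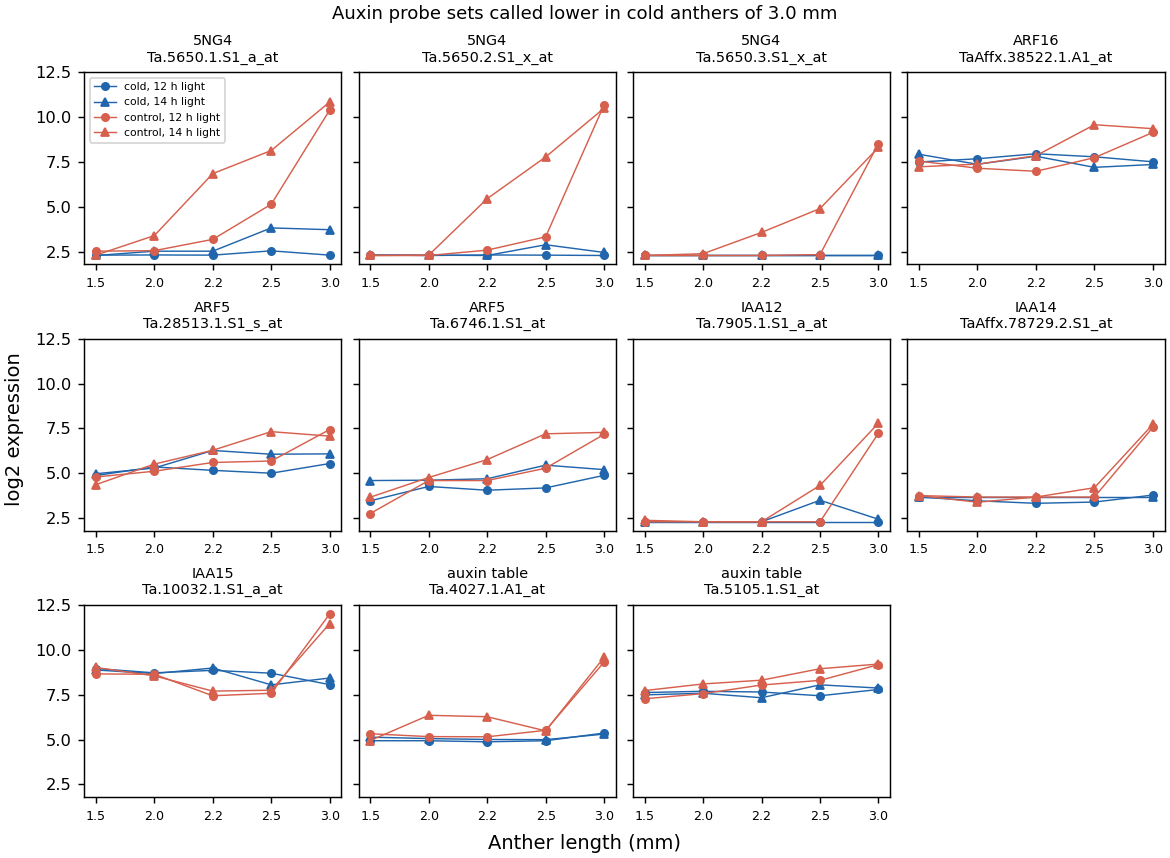
Log2 expression in each array against anther length (mm) for the 11 auxin probe sets called lower at 3.0 mm, 1 panel each. Cold arrays are blue and control arrays red, with circles for 12 h and triangles for 14 h of light. The control arrays part from the cold arrays at 3.0 mm in every panel, by −1.36 (Ta.5105.1.S1_at) to −8.23 log2 units (5NG4), and in the 5NG4 panels the 14 h control array is higher than the 12 h array at 2.2 and 2.5 mm.

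Enzyme genes were also found among those not raised in the cold. GAPN, a glyceraldehyde-3-phosphate dehydrogenase that makes NADPH, was never switched on. It lay at 5.83 in both cold arrays and at 10.1 and 9.97 in control anthers, a change of −4.2 ± 0.46 (SE; limma, adjusted p = 1.2e-05). GSTZ1, a zeta-class glutathione transferase, was never switched on in either of its probe sets, with 6.48 and 5.94 against 8.8 and 9.51 in Ta.237.1.S1_a_at (change −2.94, adjusted p = 0.000224 from limma) and a change of −2.09 in TaAffx.56524.1.S1_at. The 3 Prx1 peroxidase probe sets, on the same list, were not called, with changes of 0.43 to 0.88.

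COMT1, an O-methyltransferase of the phenylpropanoid pathway, which supplies lignin and phenolic compounds, was held at its early level. Its cold arrays lay at 8.48 and 8.32 at 3.0 mm, within the 8.1 to 8.48 of all cold arrays, and its control arrays at 12.75 and 12.49, a change of −4.22 ± 0.28 (SE; limma, adjusted p = 1.79e-07). PEAMT1, which methylates phosphoethanolamine on the way to choline, lay at 10.62 and 11.61 against 13.13 and 12.75, a change of −1.83 (adjusted p = 0.000429 from limma). The ha1 gene of a plasma membrane proton pump was called in 2 of 3 probe sets, with changes of −1.18 and −1.09 (adjusted p = 0.000438 and 0.000773 from limma). Without cold array A they were −0.93 and −0.85, under 2-fold.

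Of 4 starch and sugar probe sets tested, 1 was higher (AGA.1) and 1 lower (amy1), with a median change of 0.16, and of 10 photosynthesis probe sets 2 were lower, beside 13.9% higher and 13.3% lower of all probe sets tested. The 3 lower ones lay above their early level under both temperatures at 3.0 mm, which has no test. The beta-amylase gene amy1 lay at 11.22 and 10.31 in cold and at 14.2 and 14.65 in control anthers of 3.0 mm, a change of −3.66 ± 0.67 (SE; limma, adjusted p = 0.000748). Its cold mean was 1.91 units and its control mean 5.01 units above early anthers. PRK and FBP, which serve the Calvin cycle, lay at 9.99 and 10.03 against 12.01 and 12.32, and at 7.51 and 7.28 against 9.82 and 9.52, with changes of −2.16 and −2.27 (adjusted p = 0.001 and 0.00142 from limma). The other 8 photosynthesis probe sets tested, those of rbcL, OEE1, OEE2 and petC, were not called, with changes from −0.59 to 0.04, and the median of the list was −0.41.

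Pgk-1, the gene of phosphoglycerate kinase, lay at 10.64 and 10.95 against 12.03 and 11.95, a change of −1.2 (adjusted p = 0.019 from limma). Without any 1 of the 4 arrays of 3.0 mm its adjusted p from limma was between 0.0559 and 0.109, so its call needed all 4. The beta-tubulin gene Tubb4 lay at 9.85 and 8.67 against 10.38 and 10.15, a change of −1.01 (adjusted p = 0.0096 from limma), and was −0.64 without cold array B and −0.86 without control array F. The other 8 tubulin probe sets tested were not called, with changes from −0.95 to 0.35.

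Raftins are tapetal proteins of the pollen wall. The 4 raftin probe sets were not called at 3.0 mm, with changes from −1.46 to −0.85 and a median of −0.96. The raftin1b probe set with the greatest difference (Ta.4091.1.S1_x_at) lay at 11.23 and 11.62 in the cold and at 13.02 and 12.74 in control anthers (adjusted p = 0.117 from limma), without overlap. Cold anthers of 3.0 mm lay 1.64 to 2.57 units above early cold anthers and control anthers 1.94 to 2.8 units above early control anthers. At 2.2 mm all 4 raftin probe sets were called lower in the cold, with changes from −2.3 to −1.41, beside 7.47% of all probe sets tested. At 2.5 mm 1 of the 4 was called lower, beside 10.6%. The 2 profilin probe sets of PRO1, which binds actin, differed by −0.13 and −0.15 and were not called.

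Members with only a locus number included further large differences. LOC100125701 lay at 3.34 and 2.86 in the cold and at 10.81 and 10.52 in control anthers (change −7.57, adjusted p = 3.71e-08 from limma), and its control arrays of 2.5 mm lay at 2.67 and 4.18. LOC543135 lay at 2.28 in both cold arrays and at 7.67 and 10.09 in control anthers (change −6.6, adjusted p = 1.87e-06 from limma), and its control arrays of 2.5 mm both lay at 2.28. In these genes the control level came between 2.5 and 3.0 mm.

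The 2 greatest negative changes carried no gene name here. Ta.11808.1.S1_s_at lay at 2.44 in both cold arrays and at 14.43 and 14.24 in control anthers, and Ta.15373.3.S1_at at 2.29 in both cold arrays against 14.18 and 14.16. Both changed by −11.89 log2 units (adjusted p = 2.58e-08 and 2.58e-06 from limma). For Ta.11808.1.S1_s_at the control arrays of all shorter anthers lay between 2.28 and 2.7. For Ta.15373.3.S1_at the 14 h control array of 2.5 mm already lay at 6.99.

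The limits of the classes are narrow cuts through a range. The member kept high that was nearest to the cold limit (Ta.10389.1.S1_at) had a cold course of −0.999, and the nearest probe set outside it (TaAffx.84188.1.S1_at) had −1.003. The control courses nearest to the limit were −1.008 for a member kept high (Ta.19013.1.S1_at), and 1.013 for a member never switched on (Ta.18065.1.S1_s_at) against 0.991 outside (Ta.19544.1.S1_at). Beside the dim limit, the brightest cold array lay 0.005 under it in Ta.1654.3.A1_x_at and 0.001 above it in Ta.4014.2.S1_at, which was sorted as held at its early level. With the dim limit at the 50th percentile, 440 members remained never switched on, and with the 70th percentile the class held 917.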

How the data were processed

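Anthers of BS366 were measured on 20 Affymetrix Wheat Genome arrays. The values used are log2 expression, as the authors deposited them. MAS5 is the tool the labels name, its version and the between-array scaling being not given in the sources used here. Ties to the last decimal across 3 or more arrays occur among dim probe sets, and separate summaries of single arrays would not produce them, so how low values were made is not known. Of 28895 entries, 1 reporter control was left out, and no value was changed. Cold and control were compared by limma 3.58.1 (R 4.3.3), with a mean for each of 10 groups of temperature and length, a photoperiod term common to all lengths, 9 residual degrees of freedom, a variance trend and p-values adjusted (Benjamini-Hochberg) over 13805 probe sets. The photoperiod pairs the arrays by design. The script was tested on simulated data. Symbols were found for 845 probe sets, 844 matched by gene ID, of which 115 carry a name. Lists of replication, meiosis, MADS-box and lipid enzyme genes matched no probe set, and those of dehydrins, pollen cell wall and proteases matched none that was tested.

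Named genes were the 15 most changed named probe sets each way (13 were called lower), the auxin probe sets that the study lists by ID, members of gene lists, the 2 largest changes without a name in each direction, named or locus members of both classes, and members at the class limits. The auxin table's fold changes by the authors were not used. The members and lists were chosen with earlier results of these data known. Alternatives changed the scaling, the filter, the model, the arrays and the class limits.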

Additional observations from a re-analysis of the deposited data

Results flagged for a closer look

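The effect of cold at 3.0 mm was tested against that at 2.5 mm in the same limma fit, and 2304 of the probe sets tested (16.7%) were called for the difference. Values below are the log2 effect at 3.0 mm minus that at 2.5 mm for named probe sets called in this test and also at 3.0 mm. Many were chosen by their change at 3.0 mm, which enters the difference, so their values are descriptions. Named probe sets called for the difference but not at 3.0 mm included those of Prx1 (2.69, 2.35 and 1.94), Trx-M (1.65) and tubb2 (−1.09). The Prx1 effects at 2.5 mm were −1.81, −1.64 and −1.51. The control arrays of 3.0 mm stand apart from all others.

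Among probe sets higher in the cold, the difference was 5.33 for CL9, 3.04 for AGA.1 and 1.58 for TSA, which all were lower or not called at 2.5 mm. Among histones it was 1.18 for H2A-3, 1.27, 2.05, 1.57 and 1.6 for 4 probe sets of H2A-9, and 1.76, 1.3 and 1.16 for 3 of wcH2B-8. The other histone probe sets were not called for the difference.

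Among those lower in the cold, it was −5.59 for LTP3, −2.94 for COMT1 and −2.87 for GAPN. The 3 probe sets of 5NG4 gave −4.16, −5.27 and −4.82, IAA12 −4.75, IAA14 −3.52, IAA15 −4.2, and the auxin table entry Ta.4027.1.A1_at −3.59. IAA15 lay higher in the cold at 2.5 mm, by 0.71, which is under 2-fold.

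The 4 probe sets without a name were flagged by the same test. They were chosen as the largest changes at 3.0 mm, which favours a large difference, so the test is no separate evidence for them. The difference was 15.53 for Ta.11769.2.S1_at, −13.01 for Ta.11808.1.S1_s_at, −9.73 for Ta.15373.3.S1_at and 7.24 for Ta.15955.1.S1_a_at. Ta.11769.2.S1_at lay lower in the cold at 2.5 mm (−3.92, adjusted p = 0.0372 from limma) and higher at 3.0 mm.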

How the results depend on the processing

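Without the filter on dim probe sets, 2864 were called lower and 2501 higher. The never switched on then numbered 1510, since dim probe sets entered the class, and with the dim limit at the 50th percentile 440. Leaving out 1 array of 3.0 mm at a time gave 1722 to 1956 called higher, 1387 to 2267 called lower, 1405 to 1522 kept high and 635 to 733 never switched on. For 2.2 and 2.5 mm, alternatives chosen after seeing the data left out 1 array of that length. Members kept high that were called higher then numbered 70 to 204 and 192 to 474, and members never switched on that were called lower 107 to 156 and 199 to 385. With a photoperiod term for each length, which pairs A with E and B with F (the replicate block), 1873 were higher and 1789 lower, and with the 4 arrays of 3.0 mm alone and this pairing 1884 and 1780. Without probe sets tied in 3 or more arrays, 1788 were higher, 1391 lower and 334 never switched on, which follows from leaving out the 345 tied members. The other settings run kept the counts called, kept high and never switched on within 1.5 times, and the class counts under changed scaling, filter, model and ties were added after seeing the data. Raising low values to the 40th percentile shrank 5 of the named changes by over 1.5 times, those of LTP3, IAA12, IAA14 and 2 probe sets of 5NG4, and all stayed called. Of the named probe sets' alternatives, 1484 kept the side of the threshold, 20 lost the call, 10 gained it and none reversed. The lost calls were those of ARF16, 1 probe set of ARF5, Glc1, ha1, Pgk-1, Tubb4 and 1 of wcH2B-6, and the cause was not tested. Tubb4 was also lost with quantile normalization (−0.95), with arrays centred on the median (−0.97) and without the photoperiod term (adjusted p = 0.0643 from limma). The number of arrays and ties among dim values limit what could be called.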
